A study of Caenorhabditis elegans with 2 samples.

Results

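The genes studied were 10 cyclin, cyclin-dependent kinase (CDK) and CDK inhibitor genes of Caenorhabditis elegans, which were followed through every peak list of a ChIP-seq experiment on the homeobox protein CEH-91. They were chosen by name, as 10 of 19973 protein-coding genes in the Ensembl gene models for WBcel235. The 5 G1 members, which act at entry into and passage through G1 and S phase, were cye-1, cyd-1, cdk-2, cdk-4 and cki-1. The 5 mitotic members, which act from S phase to division, were cdk-1, cya-1, cyb-1, cyb-2.1 and cyb-3. A peak summit was assigned to a gene when it lay within 1000 bp upstream to 200 bp downstream of any annotated transcript start of that gene. All 10 genes had a ranked summit in this window in the main comparison, and 5 of them had a summit that passed the authors' threshold: cye-1 among the G1 members, and cdk-1, cyb-1, cyb-2.1 and cyb-3 among the mitotic members.

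Chromatin immunoprecipitation followed by sequencing recovers DNA bound by a protein, and stretches with an excess of fragments are called as peaks. Both samples were whole young adults of strain RW12305, aged 62.5 hours and synchronised as starved larvae of the first stage. Their own ceh-91 gene carries an insertion, made with CRISPR, that fuses TY1, EGFP and 3xFLAG tags to the protein, which was precipitated with an antibody to GFP. There is 1 group, with biological replicates 1 and 2, and no comparison with an untagged strain or another condition. The labels do not say whether the replicates were separate cultures, and their lists share 1 control alignment. Because whole animals were used, a peak cannot be assigned to a cell type, and expression of the genes was not measured.

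CDKs are kinases that are active only when bound to a cyclin, and the cyclins appear and are destroyed in turn through the cell cycle. Cyclin D with CDK-4 and cyclin E with CDK-2 drive cells from G1 into S phase, CIP/KIP-type inhibitors such as CKI-1 hold them in G1, and A- and B-type cyclins with CDK-1 drive entry into and progress through mitosis. In adult C. elegans the germ line is the tissue that keeps dividing, since somatic cells have left the cell cycle. The prefix of CEH-91 marks it as a homeobox protein, and many homeodomains are known to contact short sites rich in A and T.

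The windows of 101 bases centred on the listed summits of 4 mitotic members are shown because these are the sequences under the highest peak signals of the 10 genes. They were read from RefSeq's WBcel235 genome (ce11) on the plus strand, which is the coding strand of all 4 genes, at chrIII:9746845-9746945 for cdk-1, chrIV:10734703-10734803 for cyb-1, chrIV:10985735-10985835 for cyb-2.1 and chrV:15395488-15395588 for cyb-3. Capitals mark matches, on either strand, to 3 motifs that do not overlap in these windows: TTTNNCGC, which covers the core of E2F sites, TTTGAAA, which covers a cell cycle homology element known from mammals, and TAATTA, a homeodomain core.
cdk-1: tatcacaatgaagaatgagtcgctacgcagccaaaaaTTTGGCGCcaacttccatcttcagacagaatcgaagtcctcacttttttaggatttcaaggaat
cyb-1: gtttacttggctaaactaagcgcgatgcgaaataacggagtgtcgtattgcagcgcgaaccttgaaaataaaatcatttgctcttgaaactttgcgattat
cyb-2.1: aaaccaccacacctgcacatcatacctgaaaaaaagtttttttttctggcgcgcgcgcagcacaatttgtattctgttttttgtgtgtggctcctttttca
cyb-3: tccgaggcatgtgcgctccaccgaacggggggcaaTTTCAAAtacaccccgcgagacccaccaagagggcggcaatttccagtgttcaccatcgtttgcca

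The cdk-1 window held 1 match to TTTNNCGC and the cyb-3 window held 1 match to TTTGAAA, read there as TTTCAAA. The cyb-1 and cyb-2.1 windows held no match to any of the 3 motifs. At cyb-2.2, a near copy of cyb-2.1 that is not a member, the window held 1 match to TTTNNCGC. The window at cye-1, whose sequence is not shown, held 2 matches to TTTNNCGC, and no window of the 5 listed members held TAATTA. Across the genome, TTTNNCGC lay in 23.5% of 1114 windows around listed summits at protein-coding promoters and in 8.38% of 14234 windows around promoter summits that were ranked but not listed. The same shares were 12.9% and 9.91% for TTTGAAA, and 2.15% and 3.55% for TAATTA. The windows also differed in base composition: the median share of G and C was 45.5% in the listed promoter windows and 39.6% in the others, and the part of base composition in the motif shares was not tested. Among the members, the share of G and C was 58.4% at cyb-3, 53.5% at cye-1, 41.6% at cyb-2.1, 40.6% at cdk-1 and 39.6% at cyb-1, so only cyb-3 and cye-1 were above the listed median.

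The authors deposited 4 pairs of lists, each with all ranked peaks and with the subset that passed a threshold, here called listed peaks. One pair comes from each replicate, one from the comparison of the replicates with each other (the conservative list, with 1612 listed of 53026 ranked peaks) and one from the pooled reads (1716 of 50055). Replicate 1 had 1180 listed of 35497 ranked peaks and replicate 2 had 974 of 37659. Each ranked peak carries an irreproducible discovery rate, which is low where a peak ranks high, and alike, in both inputs of its comparison. A peak that is weak in both inputs can therefore also have a high rate. The global form of this rate was 0.01 or less for all listed peaks. Read counts are not part of the lists, and the depth behind each signal is therefore unknown. Signal is the authors' own peak value, and its scale belongs to a list. It was read as a rank or a percentile, which is the share of ranked peaks in that list with a lower signal, except where the replicates were set side by side as ratios. The conservative and pooled lists carry the same signal for the same peak.

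In the conservative list, 1 of 5 G1 members and 4 of 5 mitotic members had a listed summit. That made 5 of 10 members, beside 1473 of all 19973 protein-coding genes (7.37%) and beside 14.2% of the 10400 protein-coding genes that had any ranked summit in the window. The pooled list held the same 5 genes, against 7.65% of all protein-coding genes. The list of replicate 1 also held these 5, against 6.06% of all genes, and that of replicate 2 held the 4 mitotic members without cye-1, against 5.33%. The count of mitotic members was thus 4 of 5 in all 4 lists, with cya-1 the one that was absent each time, while the G1 count was 1 in the conservative and pooled lists and in replicate 1, and 0 in replicate 2. The difference between G1 and mitotic members was not tested, since it rests on 5 genes each that were chosen with earlier results of these data known.

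The strength of the summits gave the same order of the groups. This is not independent of the counts, since a low rate needs a high rank in both inputs. In the conservative list the strongest summits of the G1 members had a median signal percentile of 79.8, those of the mitotic members 98.8 and those of all 10 members 97.1, while the median over all protein-coding genes with a ranked summit was 73.3. In replicate 1 the medians were 56.4 for G1 members, 98.3 for mitotic members and 66.6 for all genes. In replicate 2 they were 75.2 for G1 members, 97.8 for mitotic members and 67.7 for all genes. The G1 median therefore lay below that of all genes in replicate 1 and above it in replicate 2, whereas the mitotic median was above 97 in both. The groups overlapped in every list, since cye-1 was stronger than cya-1 throughout.

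**Figure D1:**
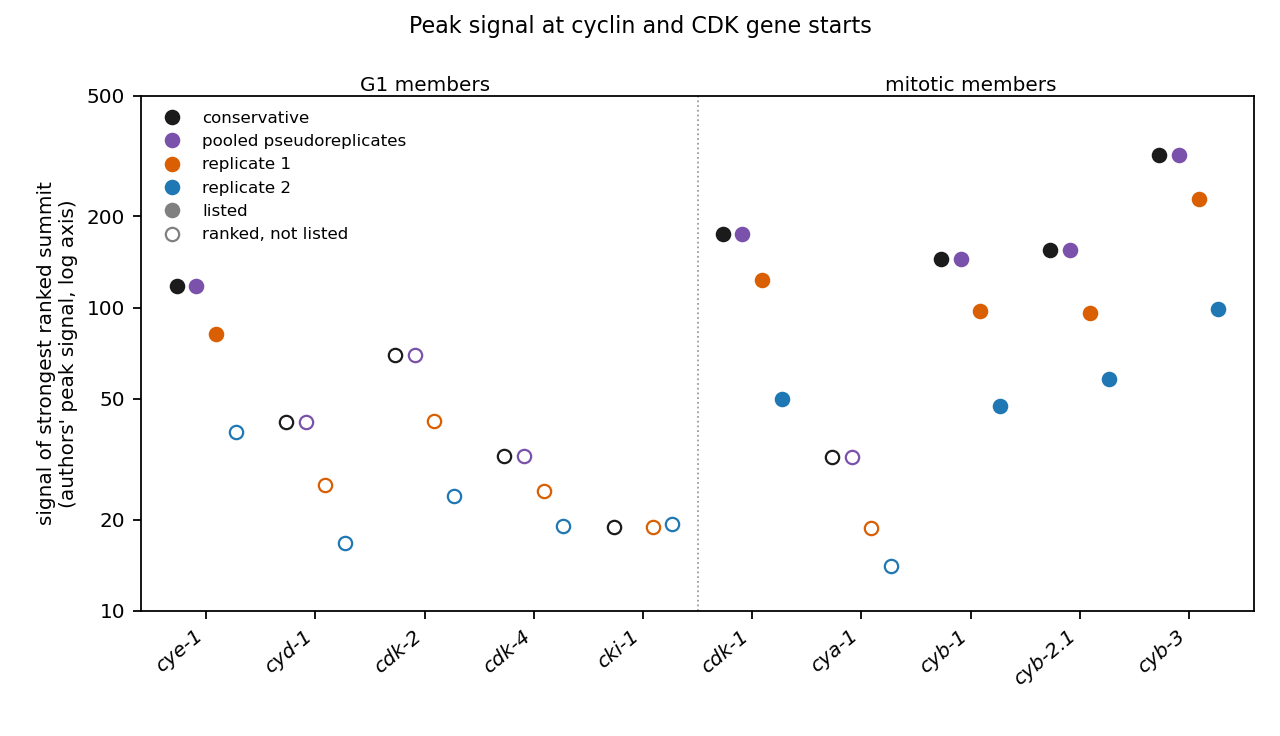
Signal of the strongest ranked summit in the promoter window of each gene, on a log axis, with a point for each list; filled points are listed peaks and open points are ranked peaks that were not listed. Cyb-3 is highest in every list, at 318.4 in the conservative list, and cya-1 lies among the G1 members that were not listed.

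Cye-1 encodes cyclin E, the partner of CDK-2 at S phase entry, and was the G1 member with a listed summit. The gene (WBGene00000871) lies at I:6780799-6784397 on the plus strand of ce11, and the conservative peak at I:6780153-6780462 had its summit in intergenic sequence 491 bp upstream of the start. Its signal was 117.8, rank 942 of all ranked peaks and 863 of the listed ones, with a global rate of 0.000613. The signal was 82.1 in replicate 1 and 38.9 in replicate 2, on each replicate's own scale. The rate was 0.000700 in replicate 1, which listed the peak, and 0.0161 in replicate 2, which did not. So cye-1 was ranked in both replicates and fell just past the threshold in one of them, where 45 peaks of lower signal were listed. In the conservative list 46.5% of listed peaks had a lower signal than the cye-1 peak, which put it near the middle of that list.

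Cdk-2 encodes the kinase that works with cyclin E. In the conservative comparison it came closest to the threshold among the members that were not listed. The gene (WBGene00019362) lies at I:3410013-3416368 on the plus strand, and its strongest summit lay 459 bp upstream in intergenic sequence. Its signal in the conservative comparison was 69.9, rank 2143 and percentile 96.0, with a global rate of 0.0303. Although 115 listed peaks had a lower signal, 646 unlisted ones had a signal at least as high, so this level of signal occurred on both sides of the threshold. The rate was 0.700 in the pooled comparison, 0.823 in replicate 1 and 0.860 in replicate 2. The signal was 42.3 in replicate 1 (percentile 91.7) and 24.0 in replicate 2 (percentile 88.5), and the summits of the replicates were 16 bp apart. The position of the strongest cdk-2 summit thus repeated between the replicates while its rates stayed far above the threshold in 3 of the 4 comparisons. A weaker peak overlapped the strongest one in the conservative comparison, with its summit 246 bp upstream. Its signal was 24.9 and its rate nearly the same, 0.0302. The nearest listed summit was 26.0 kb downstream, upstream of nefr-1 and of sep-1, which encodes separase, the protease that releases sister chromatids.

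The cyclin D and CDK-4 pair had weaker summits. Cyd-1 (WBGene00000870, II:12980591-12993117, plus strand) has a second annotated start inside the gene, and its single ranked summit lay 262 bp upstream of that second start, in an intron, with none at the first start. Signal there was 42.0 in the conservative comparison, at a rate of 0.440, with 26.0 in replicate 1 and 16.7 in replicate 2. Cdk-4 (WBGene00000406, X:13515856-13518911, minus strand) had its strongest summit 356 bp upstream, with a signal of 32.4 and a rate of 0.779. That window is shared with F18H3.1 on the other strand. The strongest signal at cdk-4 was 24.8 in replicate 1 and 19.0 in replicate 2, from peaks whose summits were 485 bp apart and that did not overlap. Replicate 1 also ranked a weaker peak that overlapped the one of replicate 2, with a signal of 16.7 and a summit 323 bp upstream, beside the 382 bp of replicate 2. The replicates thus shared a ranked place at cdk-4, at rates of 0.909 in replicate 1 and 0.580 in replicate 2, but differed in which place was strongest. The nearest listed summits were 35.7 kb from cyd-1 and 70.1 kb from cdk-4.

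Cki-1 encodes the CIP/KIP-type inhibitor that keeps cells in G1 (WBGene00000516, II:7811240-7812105, plus strand), and it had the lowest signal of the 10 members in the conservative list. Its strongest summit lay 83 bp upstream with a signal of 18.9, rank 40515 and a rate of 0.751, and the pooled list had no ranked summit in its window. The signal was 18.9 in replicate 1 and 19.3 in replicate 2, with summits 232 bp apart. A listed summit lay 5297 bp downstream of the cki-1 start, at the neighbouring gene cki-2, which encodes a second inhibitor of the same family. That peak had a signal of 104.1 and a summit 37 bp downstream of the cki-2 start, in its 5′ UTR. Of the adjacent pair of inhibitor genes, cki-2 was thus the listed one, in the conservative list, the pooled list and replicate 1 but not in replicate 2.

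Cdk-1 encodes the main mitotic kinase and was the kinase gene with a listed summit in all 4 lists. The gene (WBGene00000405) lies at III:9747472-9748852 on the plus strand, and the conservative peak at III:9746740-9747049 had its summit 577 bp upstream of the start. Its signal was 174.5, rank 526 of all ranked peaks and 472 of the listed ones, with a rate of 8.60e-05. The signal was 123.6 in replicate 1 at a rate of 2.64e-05, and 49.97 in replicate 2 at a rate of 0.00174. A further summit 100 bp downstream of the start, in coding sequence, had a signal of 41.2 and a rate of 0.426 and was not listed. The listed summit at cdk-1 was therefore the more distant of the pair, and the farthest from its gene's start among the 5 listed members.

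Of the B-type cyclin genes among the members, cyb-3 carried the strongest peak. It encodes a B3-type cyclin (WBGene00000868, V:15395696-15397353, plus strand), and the peak at V:15395435-15395615 had its summit 158 bp upstream of the start. Its signal of 318.4 was rank 190 of all ranked peaks and 161 of the listed ones, so 90.0% of listed peaks were lower. The signal was 227.9 in replicate 1 and 99.2 in replicate 2, and the global rate was 1e-05, the lowest value the lists can hold, in all 4 lists. Cyb-3 was the highest member in both replicates and in both comparisons over the whole series.

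Cyb-1 encodes a B-type cyclin (WBGene00000865, IV:10735216-10737177, plus strand), and its peak at IV:10734598-10734907 had a summit 463 bp upstream of the start. The signal was 144.3, rank 692, at a rate of 0.000182, with 97.7 in replicate 1 and 47.3 in replicate 2. A weaker summit 21 bp downstream of the start, in the 5′ UTR, had a signal of 50.9 at a rate of 0.468 and was not listed. As at cdk-1, the listed summit was the one away from the start.

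Cyb-2.1 encodes another B-type cyclin (WBGene00000866, IV:10985985-10987426, plus strand), and its peak at IV:10985630-10985939 had a summit 200 bp upstream of the start. The signal was 155.3, rank 625, at a rate of 9.14e-05, with 95.9 in replicate 1 and 58.2 in replicate 2. Its values are uncertain, because the genome holds a near copy of the gene, cyb-2.2. The coding sequences of cyb-2.1 and cyb-2.2 were identical at 90.1% of aligned positions, and the 300 bp upstream of their starts at 95.03%. The 311 bp around their summits were identical at 93.4%, with a longest identical stretch of 63 bp. The central 101 bp were identical at 84.1%, with a longest identical stretch of 20 bp. Both alignments held 12 gap positions, beside 5 mismatches in the shorter and 9 in the longer one. An equal number of gaps weighs more in the shorter one, but its 5 mismatches fell in 101 bp, beside 9 in 311 bp. Whether the centre is more distinct was not tested. Cyb-2.2 had a listed peak at nearly the same place, 207 bp upstream of its start, with a signal of 362.4. Its signal was 2.33 times that of cyb-2.1 in the conservative list, 2.41 times in replicate 1 and 2.29 times in replicate 2. How reads that match both copies were placed is not given in the sources used here, so the level at each copy could not be separated from the other, though both places were listed in every list.

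Cya-1 encodes an A-type cyclin (WBGene00000863, III:9106699-9109272, minus strand) and was the mitotic member with no listed summit. Its strongest ranked summit lay 669 bp upstream with a signal of 32.2, percentile 58.1, and a rate of 0.692. The signal was 18.8 in replicate 1 and 14.1 in replicate 2, the lowest of the 10 members in both. A listed peak at III:9110931-9111240, with a signal of 103.9, had its summit 1814 bp upstream of the cya-1 start in intergenic sequence, outside the window used and outside the window of any other gene. With a window reaching 2000 bp upstream, cya-1 was the member that was gained. That wider window gave a listed summit to 9.28% of all protein-coding genes, beside 7.37% in the main window.

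**Figure D2:**
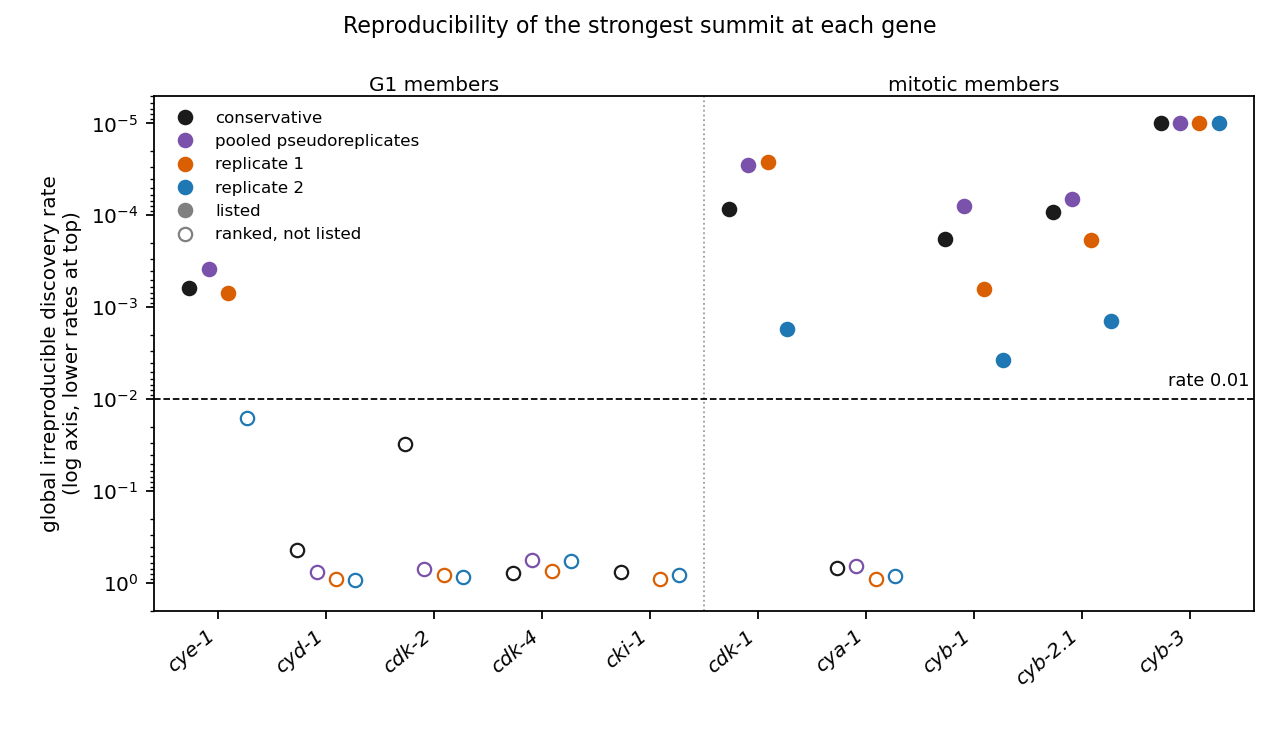
Global irreproducible discovery rate of the strongest ranked summit at each gene, on a log axis with the lowest rates at the top, with a point for each list; the dashed line marks the rate of 0.01. The 4 listed mitotic members lie above the line in every list, cye-1 crosses it in replicate 2 with a rate of 0.0161, and the nearest of the rest is cdk-2 at 0.0303.

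The replicates were set side by side at the members, with signal on each replicate's own scale. The strongest signal of replicate 1 was a higher number than that of replicate 2 at 9 of 10 members, and at cki-1 the ratio was 0.977. At cdk-4 these were different places, and at the place that both ranked replicate 1 had 16.7 and replicate 2 had 19.0. The ratio of replicate 1 to replicate 2 was 2.11 at cye-1, 2.47 at cdk-1, 2.06 at cyb-1, 1.65 at cyb-2.1 and 2.30 at cyb-3. Over all 784 pairs of listed peaks the median ratio was 1.67, with quartiles at 1.44 and 1.94 and an SD of 0.35 on the log2 scale. Cdk-1, cyb-1 and cyb-3 thus lay above the upper quartile of all pairs and cyb-2.1 near the median, with no test made. Cye-1 is not one of these pairs, since replicate 2 did not list it. The order of the members was close between the replicates: cyb-3 was first and cya-1 last in both, and the same 6 genes, the 5 listed ones and cdk-2, were the highest. The summits of the members listed in both replicates were 17 bp apart at cyb-3, 24 bp at cdk-1, 53 bp at cyb-2.1 and 68 bp at cyb-1, beside a median of 15 bp and an upper quartile of 32 bp over all listed pairs. All 4 therefore lay above the median shift, and cyb-3 was the closest to it. At cye-1 the summits were 34 bp apart. Since 99.2% to 99.3% of the ranked peaks in a list share 1 fixed width, with the summit at the centre, most ranked summits are the middle of a called interval. That share was not computed for listed peaks alone. Among the members, the listed cyb-3 peak was narrower, at 174 bp in replicate 1 and 181 bp in the conservative list, beside fixed widths of 300 and 310 bp.

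Summits of the listed members lay 158 to 577 bp upstream of their starts, with a median of 463 bp. Over the 1473 protein-coding genes with a listed summit the median was 260 bp upstream, and 1408 of these summits were upstream. Cyb-3 and cyb-2.1 were closer to their starts than this median, and cyb-1, cye-1 and cdk-1 were farther. At these 3 genes, another gene started nearer to the summit on the opposite strand. At cye-1 the summit lay 157 bp from the start of pqn-21, a gene for a protein rich in glutamine and asparagine, and the 2 starts were 648 bp apart. At cdk-1 it lay in an intron of iff-1, which encodes a translation initiation factor. The nearest start of iff-1 was 291 bp from the summit and 868 bp from the cdk-1 start. Iff-1 has 3 annotated starts, and its outermost one, at III:9747193, lies between the summit and cdk-1. At cyb-1 the summit lay 165 bp from the start of orc-5, between starts 628 bp apart. Orc-5 encodes a subunit of the origin recognition complex that begins DNA replication.

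Cyb-3 also shares its upstream region, with T06E6.1, whose start was 577 bp from the summit, so there the cyclin gene was the nearer one. Cyb-2.1 shared its peak with no other gene. Peaks of 4 of the 5 listed members (80%) therefore lay in the windows of genes on both strands, beside 426 of 1114 listed promoter peaks (38.2%) in the whole list. Where each summit was given to the nearest protein-coding start alone, only cyb-2.1 and cyb-3 kept a listed summit, beside 5.25% of all protein-coding genes. The lists cannot show which gene of such a pair, if either, a peak bears on.

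**Figure D3:**
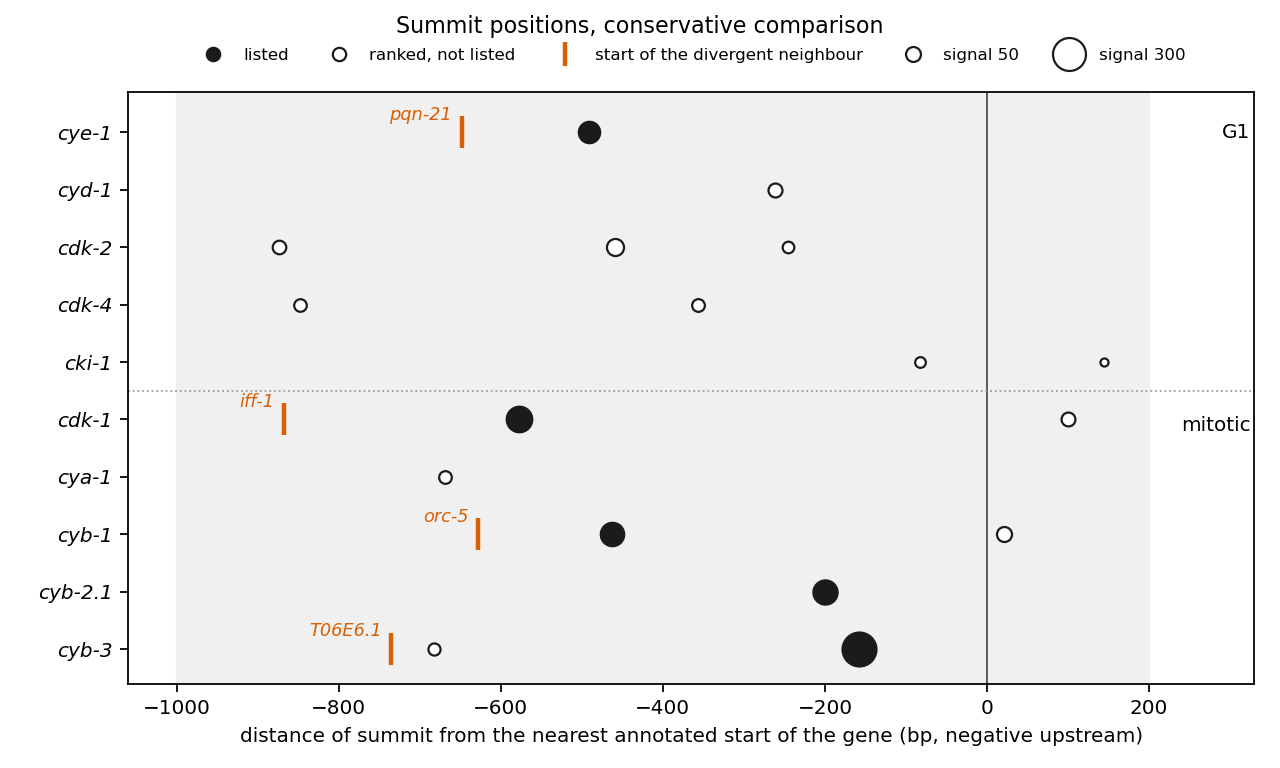
Position of every ranked summit in the promoter windows of the 10 genes in the conservative comparison, in bp from the nearest annotated start of the gene, with the area of a point following its signal. Filled points are listed and open points are not. Orange bars mark the start of the divergent neighbour that is nearest the listed summit, at cye-1, cdk-1, cyb-1 and cyb-3. The 5 listed summits lie 158 to 577 bp upstream.

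Further genes of the pathway were taken from 5 lists that hold 52 genes. In the conservative list 14 of them (26.9%) had a listed summit, beside 7.37% of all protein-coding genes. These rested on 15 peaks, of which those at cit-1.1 and cit-1.2 overlapped each other. The count was 12 (23.1%) in the pooled list, 13 (25%) in replicate 1 and 8 (15.4%) in replicate 2. Of all protein-coding genes, the same lists held 7.65%, 6.06% and 5.33%. The 8 that both replicates listed were ccnk-1, cul-4, cyb-2.2, emb-1, fzy-1, lin-35, plk-1 and plk-2. The share of all protein-coding genes that both replicates listed was not computed. For 10 of the 14 genes a listed peak was nearest to their own start when only protein-coding starts were counted. Of these, plk-1, wee-1.3 and lin-23 had a non-coding RNA gene that started nearer. The 41 genes with a ranked summit had a median signal percentile of 92.4, beside 73.3 for all protein-coding genes with one.

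Among 4 close relatives, cyb-2.2 and cki-2 were listed and cya-2 and cks-1, which encodes a small CDK-binding subunit, were not. Of 11 genes grouped under CDK phosphorylation and dephosphorylation, 3 (27.3%) were listed, beside 7.37% of all protein-coding genes. These were plk-1 (signal 405.6) and plk-2 (179.2), which encode polo-like kinases, and wee-1.3 (111.6), which encodes the kinase that inhibits CDK-1. Cdc-25.1, which encodes a phosphatase that removes that inhibition, was outside the threshold at a rate of 0.0113.

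Of 16 genes for the degradation of cyclins and inhibitors, 5 (31.25%) were listed, beside 7.37% of all protein-coding genes. Emb-1, a subunit of the anaphase-promoting complex that marks B-type cyclins for destruction, was assigned the strongest peak of the pathway at 568.5. That summit lay 786 bp upstream of emb-1, though, and was nearer to the starts of K10D2.5 and of the splicing factor gene prp-19. Fzy-1, the activator of that complex, had 150.0, with its summit 477 bp upstream and only 92 bp from the start of F12A10.8. Such-1, another subunit, had peaks of 132.9 and 100.6. The stronger such-1 summit lay 514 bp upstream and was nearer to Y66D12A.16, at 63 bp. Cul-4, a ubiquitin ligase scaffold, had 201.6, and lin-23, an F-box protein, had 112.6 with its summit 939 bp upstream. Replicate 1 listed emb-27, a further subunit, as well.

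Lin-35, the retinoblastoma protein that represses G1 and S phase genes, was the 1 listed gene of 4 in the Rb and E2F list, with a signal of 289.8 and a window shared with vps-51. Its partner efl-1, the E2F factor, was ranked with a signal of 77.3 at a rate of 0.0219. Of 17 genes for transcriptional and neuronal CDKs and their cyclins, 3 (17.6%) were listed, beside 7.37% of all protein-coding genes. In each of the other lists 1 of the 17 (5.88%) was listed, close to the 7.65%, 6.06% and 5.33% of all genes in the pooled list, replicate 1 and replicate 2. Ccnk-1, cyclin K, had a signal of 129.4 and was in all 4 lists. Its summit in the conservative list lay 180 bp upstream and was nearer to R11H6.5, at 146 bp. Cit-1.1 and cit-1.2, for cyclin T, shared their overlapping peaks (73.7 and 3.75) and were in the conservative list alone. The weaker peak was at percentile 2.39 of all ranked peaks. The global rates of the pair, 0.00933 and 0.00930, were just under the threshold. None of the kinase genes among the 17 was one of the 3.

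**Figure D4:**
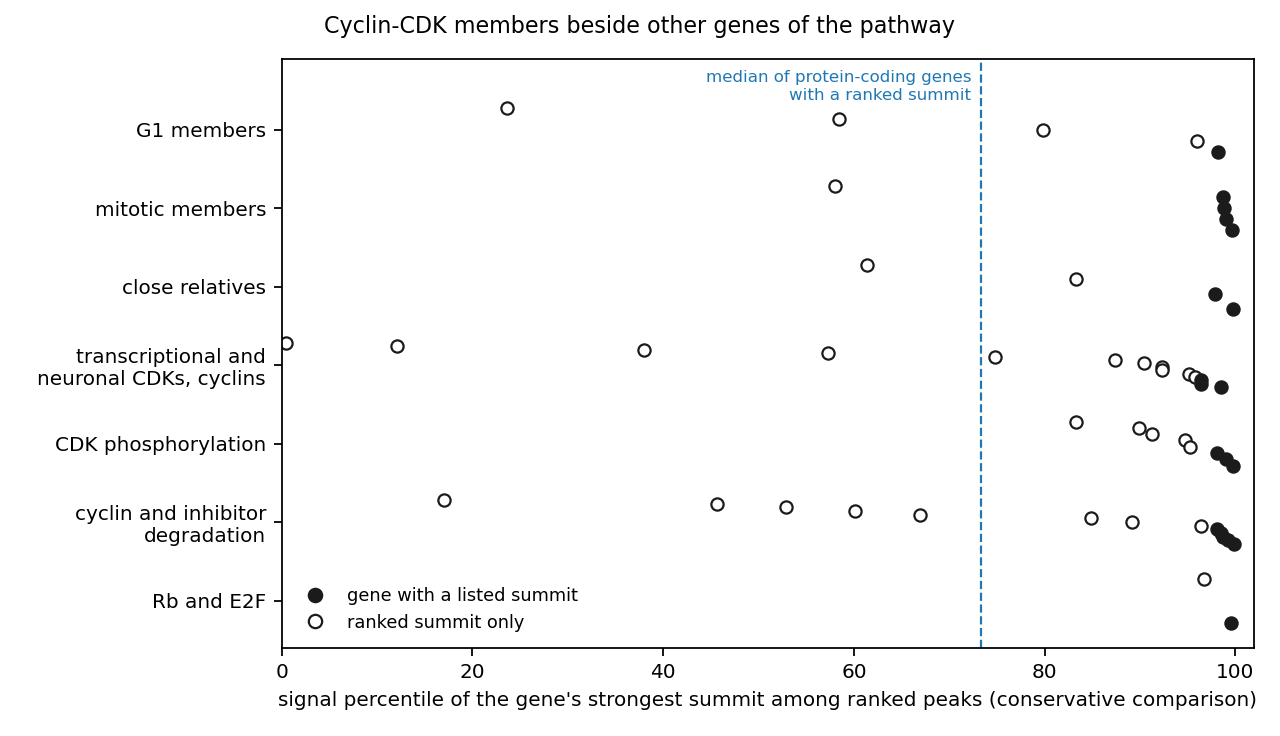
Signal percentile of the strongest ranked summit of each gene among all ranked peaks of the conservative comparison, for the G1 members, the mitotic members and the 5 further lists of the pathway; filled points are genes with a listed summit, and points are spread vertically for legibility. The dashed line is the median of all protein-coding genes with a ranked summit, at 73.3, and genes without a ranked summit are not drawn.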

How the data were processed

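Peak lists were deposited by the authors on ce11, the assembly also named WBcel235, as 8 tables. For aligner and peak caller, a name and version were not given in the sources used here. Per the deposited notes, the lists belong to 1 replicate or to both together and draw on 1 control alignment. The deposited lists hold a score capped at 1000 per peak, the authors' signal per peak, the −log10 of a q-value, and the −log10 of the local and global discovery rates. The signal and the global rate were used here, and the rate was converted back from its logarithm. The ranked list of the conservative comparison was told apart by its inputs: 58.4% of its first inputs had the coordinates of peaks of replicate 1 and 60.4% of its second inputs those of replicate 2, against 0% and 0.0020% in the remaining one, which was therefore taken to be that of the pooled pseudoreplicates.

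A summit is the peak start plus the summit offset, and coordinates are 1-based. Summits were assigned to transcript starts of Ensembl release 115 gene models with Python 3.11.15, numpy 2.4.6 and pandas 2.3.3, and the assignment was checked on simulated summits. Sequences were aligned with Biopython 1.88. All 10 members are named, as are the pathway genes with a listed summit in the conservative list and all genes that share a listed window with a member; cya-2, cks-1, cdc-25.1, efl-1 and emb-27 were named after their values were seen. Members, lists and motifs were chosen with earlier results of these data known, so counts stand beside those of all protein-coding genes and no test was made. Alternatives were single replicates, the pooled list, a stricter rate, narrower and wider windows, the nearest start and interval overlap.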

Additional observations from a re-analysis of the deposited data

How the results depend on the processing

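The counts of listed members depended most on how a summit was given to a gene. With the nearest protein-coding start alone, 2 members were listed in place of 5, beside 5.25% of all protein-coding genes. Among the listed members, 0 were G1 members in place of 1 and 2 were mitotic members in place of 4. The median signal percentile was 79.8, over the 9 members that kept a ranked summit, in place of 97.1 over 10. For all protein-coding genes with a ranked summit it was 70.0 in place of 73.3. By construction, that setting drops the 3 genes whose divergent neighbour starts nearer. Leaving out a replicate gave 4 to 5 listed members, 0 to 1 G1 members and 4 to 4 mitotic members, and a median percentile of 92.6 to 94.8: without replicate 1, cye-1 was lost, the G1 count was 0 and the median 92.6, and without replicate 2 the median was 94.8. Both single-replicate medians were below 97.1, and they come from shorter ranked lists. The SD between replicates, 1.53, is that of these 2 medians alone, so it gives no separate scale for their move. A global rate of at most 0.001 kept all 5 members, beside 5.46% of all protein-coding genes. Interval overlap (7.74% of all genes) and the pooled list (7.65%) kept them too. A window of 500 bp upstream to 100 bp downstream gave 4, without cdk-1, beside 5.86% of all genes. One of 2000 bp upstream to 500 bp downstream gave 6, with cya-1, beside 9.28%. No paired analysis was possible because there is 1 group and no result comes from a test. The lists give no depth, so a member that was not listed cannot be called unbound.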
